A study of Mus musculus with 14 samples.

Results

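The 2 control groups in a study of mouse small intestinal tumor organoids were compared with each other, to describe the lineage, metabolic and signalling state of the cultures without depletion of the study's target. The members are the 4 libraries titled shCtrl_#2 (control 2) and the 3 titled shCtrl_#1 (control 1), 7 of the 14 libraries of the series. The study itself set organoids with a short hairpin RNA against Suv4-20h2, the histone H4 lysine 20 methyltransferase encoded by Kmt5c, beside organoids with a control hairpin. All libraries come from organoids labelled APT, a name that the labels do not spell out. All groups, controls included, had 4 days of doxycycline at 0.5 µg/ml, the inducer of the hairpins. The other 7 libraries serve here only to ask whether a difference recurs: 3 carry the hairpin to exon 4 (hairpin 1, deposited with control 1) and 4 the hairpin to exon 9 (hairpin 2, deposited with control 2). Each control is labelled as the control of a numbered clone, but the labels do not say whether the controls are separate clones or how replicates were grown. The p-values therefore cover only library-to-library spread, which may be technical. Clone, culture and library set cannot be told apart in this comparison.

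An organoid is a small epithelial structure grown from stem cells in a gel. In the normal small intestine, Wnt signals keep stem cells at the crypt base dividing. Their daughters become absorptive enterocytes or secretory cells: Paneth cells that release antimicrobial peptides, goblet cells that release mucus, hormone-producing enteroendocrine cells and tuft cells. Intestinal tumors often carry changes in the Wnt pathway and hold these cell types in altered proportions.

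Epcam, Cdx2, Cdh1, Vil1 and Hnf4a, markers of epithelial and intestinal identity, were present in both controls; the wider lists of such genes, given further on, hold large differences. Levels are given as CPM, scaled counts relative to the counts in all compared genes, which carry no correction for transcript length and so compare libraries but not genes; where 2 ranges are set against each other, control 1 comes first. Epcam, an epithelial surface molecule, was at 1514, 1053 and 1533 CPM in control 1 and 1256, 1255, 1199.8 and 1368 CPM in control 2. Cdx2, a transcription factor that sets intestinal identity, was at 215, 228 and 196 CPM in control 1 and 217, 227, 216 and 226 CPM in control 2. For both genes the groups overlapped, and neither passed the test, with log2 differences (control 2 minus control 1, here and throughout) of -0.11 ± 0.14 (SE), adjusted p = 0.51 and 0.06 ± 0.09 (SE), adjusted p = 0.57. Cdh1, which encodes E-cadherin, did not pass either, at 529 to 675 CPM against 678 to 709.8 CPM (0.25 ± 0.11 (SE), adjusted p = 0.06). Vil1, a brush border protein, was at 399 to 416 CPM against 322 to 350.1 CPM (-0.29 ± 0.08 (SE), adjusted p = 0.0096). Hnf4a, an intestinal transcription factor, was at 322 to 423 CPM against 285 to 322 CPM (-0.34 ± 0.11 (SE), adjusted p = 0.024). No direction is drawn for these genes, since the small differences turned with the processing: with the trend over GC content, transcript length and level removed, Vil1 and Epcam were higher in control 2 (0.22 and 0.44), and Hnf4a and Cdh1 changed sign. Single libraries also moved these calls. Vil1 missed the threshold without control 2 replicate 2 (adjusted p = 0.051), and Hnf4a without any library other than control 2 replicate 2 or control 1 replicate 3 (0.052 to 0.083), whereas Cdh1 passed without control 1 replicate 1 (0.0045) and Epcam without control 1 replicate 2 (0.021).

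Apc, the suppressor of the Wnt pathway, was at 76.9 to 105 CPM against 92.2 to 113 CPM and did not pass the test (0.21 ± 0.13 (SE), adjusted p = 0.17), although it did without control 1 replicate 2 (adjusted p = 0.011), and its sign turned with the trend removed (-0.23). Trp53, which encodes the tumor suppressor p53, was lower in control 2, at 8.43 to 19.4 CPM against 5.5 to 7.18 CPM (-1.01 ± 0.28 (SE), adjusted p = 0.009). Tgfbr2, a TGF-beta receptor, was at 37.4 to 59.6 CPM against 92.1 to 104 CPM (1.01 ± 0.15 (SE), adjusted p = 2.7e-04), but with the trend removed the difference was 0.12 (adjusted p = 0.49). Kmt5c, the study's target, was at 80.9 to 91 CPM against 119.6 to 132 CPM (0.55 ± 0.09 (SE), adjusted p = 4.9e-04). Its paralog Kmt5b overlapped between groups at 76.9 to 127 CPM against 96.7 to 119 CPM (0.09 ± 0.16 (SE), adjusted p = 0.65).

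The libraries differed as sets as well as in single genes. Total counts were 16265034 to 18088690 in control 1 and 19837679 to 26284079 in control 2. Ribosomal protein genes took 9.54% to 12.6% of counts in control 1 and 1.74% to 2.00% in control 2, and were left out of the totals. Mitochondrially encoded genes took 0.449% to 0.972% and 1.30% to 1.70%. Genes that share at least 20% of their 50-base stretches with another gene took 10.3% to 10.9% and 3.35% to 3.51%. Reads of such genes can be split between copies, so any of them named below is marked as uncertain. For each of these shares the groups did not overlap (exact two-sided permutation p = 0.057, the smallest that 3 against 4 libraries allow). Differences also moved with transcript length: the median log2 difference was -0.26 over genes of up to 799 bases and 0.45 over genes of 2397 bases or more. The part of these shifts in the results that follow was not tested unless a value stands beside a result. The median coefficient of variation between replicates was 17.1% in control 1 and 7.02% in control 2, where replicate 4 stood apart from the other 3.

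Of 16836 autosomal genes compared, 13945 had enough counts to be tested. Of these, 9815 (70.4%) passed at an adjusted p under 0.05 in edgeR's quasi-likelihood test, 5022 (36%) higher and 4793 (34.4%) lower in control 2. Because so many genes passed, the account rests on differences that were large and consistent within groups. That rule asks for an adjusted p under 0.05, at least a 4-fold change, a mean of 5 CPM or more in the higher group, and a lowest library of that group at least 2-fold above the highest library of the other; a gene falls below the rule when any of these is missed. By it 778 genes (5.58%) were higher and 777 (5.57%) lower in control 2, 1555 (11.2%) in all. The counts for each gene list below are to be read beside these shares of all genes tested. A list whose counts lie near them does not stand out. Of the 778, 18 shared sequence with another gene, and of the 777, 182 did. With such genes left out before the fit, 765 were higher and 615 lower.

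The hairpin libraries, which are separate libraries of the same 2 sets, gave much the same differences. Hairpin 2 against hairpin 1 gave 661 genes (4.89%) higher and 673 (4.98%) lower by the same rule, 1334 (9.87%) in all. At an adjusted p under 0.05, 53.7% of tested genes passed, 25.2% higher and 28.5% lower. List counts between hairpins, given further on, stand beside these shares. Of the 778 genes higher in control 2, 772 were tested there, 766 had the same sign and 539 met the rule again. Of the 777 lower genes, 759 were tested, 759 had the same sign and 537 met the rule. The 6 genes of opposite sign were Grhl3, Emp1, Mal, Pstpip2, Acta1 and Krt20, and none of them passed the test in the hairpin libraries. Hairpin 1 replicate 1 stood apart, with a correlation of log2 CPM of 0.908 with replicates 2 and 3, beside 0.991 between those. Without it 5323 genes passed the test as higher and 4993 as lower between hairpins, 943 and 959 by the large rule. A gene that did not pass between hairpins is therefore not shown to be equal there. Krt20, a keratin of differentiated intestinal cells, was at 10.3, 1.91 and 4.15 CPM in control 1 and 40, 41, 45.1 and 48.7 CPM in control 2. Every control 2 library lay above every control 1 library, with a difference of 3.0, while that between hairpins was -1.76 (adjusted p = 0.14). Emp1 had 2.35 between controls (1.94 with the trend removed, below the rule) and -0.30 between hairpins (adjusted p = 0.72). Grhl3 fell below the rule between controls without control 1 replicate 3 (1.66) and with the trend removed.

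**Figure D1:**
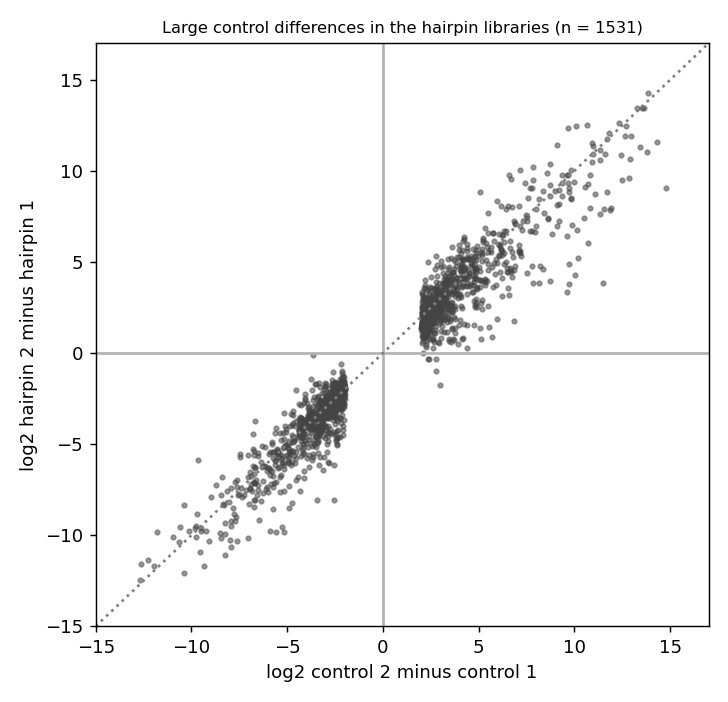
Log2 difference between the 2 controls (horizontal axis) against that between the 2 hairpin groups (vertical axis), 1 point per gene with a large and consistent difference between controls that was tested in both (n = 1531). The dotted line marks equal differences, and 6 points lie in the quadrant of opposite sign; no point lies near 0 on the horizontal axis because the rule leaves those genes out.

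Some genes were counted in one control and at 0 in the other. Of the genes higher in control 2, 38 had no count in any control 1 library. For 14 of these hairpin 1 had none either, while hairpin 2 had at least 184 counts for each of the 38. Fermt2, which encodes the integrin-binding protein kindlin-2 (ENSMUSG00000037712, chr14:45458795-45530118, GRCm38), was at 0 in all 3 control 1 libraries and 199, 186, 198 and 169 CPM in control 2. Set against a floor of 3 counts per library, control 2 was at least 885-fold higher. Igfbp5, which binds insulin-like growth factors outside the cell (ENSMUSG00000026185, chr1:72857932-72874884), was at 0 in all 3 control 1 libraries and 105, 83.4, 95.9 and 98.1 CPM in control 2, at least 449.5-fold higher. Armh4 was at least 624-fold, Masp1 at least 441-fold, Abhd12b at least 390.1-fold, Qser1 at least 369-fold and Gabra4 at least 341-fold higher. Glp1r, the receptor of the gut hormone GLP-1, was at least 301-fold higher, Chrnd at least 206-fold and Thbd, which encodes thrombomodulin, at least 156-fold. Of these genes, Igfbp5, Abhd12b, Qser1, Glp1r, Chrnd and Thbd also had no count in the hairpin 1 libraries. The developmental transcription factors Pax3 (0 in all 3 control 1 libraries and 4.21 to 7.17 CPM in control 2) and Sall2 (0 in all 3 control 1 libraries and 14.2 to 19.5 CPM in control 2) were also at 0 in control 1; Pax3 fell below the rule with the trend removed. Frem2, a matrix protein of epithelial basement membranes, was at 0 in all 3 control 1 libraries and 33 to 40.6 CPM in control 2, at least 169-fold higher. Its relative Frem1 was at 0 to 0.0704 CPM against 185 to 203 CPM, with 1 count in all of control 1. Dpp6 was at 0 to 0.0704 CPM against 219 to 266 CPM, a ratio of 10283 whose exact counting interval (95%) runs from 1845 to 406165, since control 1 had 1 count.

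In the other direction, 7 of the genes lower in control 2 had no count there, and 6 of them had none in hairpin 2. This number cannot be set against that of genes at 0 in control 1. The control 2 files list fewer genes, and a gene they do not list could not enter it, whatever its level in control 1. Control 1 also had fewer libraries and lower total counts, which makes a gene at 0 in all of them more likely. Epb41l3, which encodes a protein of the membrane skeleton (ENSMUSG00000024044, chr17:69075683-69289989), was at 45.4, 36.2 and 48.1 CPM in control 1 and 0 in all 4 control 2 libraries, at least 280.3-fold lower. Cpne8 was at 24.2, 34.7 and 19.6 CPM in control 1 and 0 in all 4 control 2 libraries, at least 170-fold lower. Tmem37 (4.89 to 7.65 CPM in control 1 and 0 in all 4 control 2 libraries) and Bend6 (4.15 to 8.5 CPM in control 1 and 0 in all 4 control 2 libraries) were low in control 1 as well, and Bend6 fell below the rule without control 1 replicate 1. Gkn3, a secreted gastric protein, was at 1.91 to 11 CPM in control 1 and 0 in all 4 control 2 libraries and fell below the rule without control 1 replicate 3. Wfdc2, a secreted protease inhibitor of many epithelia, was at 332, 233 and 365 CPM in control 1 and 0, 0, 0 and 0.206 CPM in control 2 (-12.29 ± 0.44 (SE), adjusted p = 4.4e-08). Further genes near 0 in control 2 were Cma1 (123 to 425 CPM against 0.186 to 0.371 CPM), Sval1 (13 to 22.4 CPM against 0 to 0.0394 CPM) and Apol9b (38.6 to 62.4 CPM against 0 to 0.103 CPM). Eno1b, a copy of the glycolytic gene Eno1, was at 701 to 1000.3 CPM against 0.308 to 0.784 CPM, and Trf, which encodes the iron carrier transferrin, at 159 to 261 CPM against 0 to 0.702 CPM. Both are uncertain, with 84.5% and 79.8% shared sequence.

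Paneth cell genes were lower throughout. Of 24 listed, 14 were tested, and all 14 were lower in control 2, beside 34.4% of all genes tested. By the large rule 11 of the 14 were lower, beside 5.57%, with a median log2 difference of -7.79 against 0.02 over all genes. The median was -7.46 with the trend removed and -7.26 with genes at 0 set to their bound. Lyz1, the Paneth cell lysozyme (ENSMUSG00000069515, chr10:117287797-117292868), was at 633, 639.5 and 423 CPM in control 1 and 1.77, 0.874, 2.17 and 4.09 CPM in control 2 (-7.96 ± 0.40 (SE), adjusted p = 3.2e-07). Reg4, a lectin of several secretory cell types, was at 1784, 773 and 1808 CPM in control 1 and 5.72, 6.48, 5.87 and 11.1 CPM in control 2 (-7.63 ± 0.39 (SE), adjusted p = 3.6e-07). Mptx1, a pentraxin of Paneth cells, was at 100.2, 42.8 and 131 CPM in control 1 and 0, 0, 0.0394 and 0.0413 CPM in control 2, and all of control 2 held 2 counts of it. For all 3 genes every control 2 library lay far below every control 1 library. The alpha-defensin Defa24 was at 197, 99.6 and 888 CPM in control 1 and 0, 0, 0.0394 and 0.165 CPM in control 2, uncertain with 28.1% shared sequence. Ang4, an antimicrobial ribonuclease, was at 114 to 459 CPM against 1.81 to 5.12 CPM. Pla2g2a, a secreted phospholipase of Paneth cells, was at 832 to 2685 CPM against 61.4 to 103 CPM. Mmp7, the protease that activates defensins in the mouse, was at 154 to 399 CPM against 11.7 to 14.6 CPM (-4.40). Clps, which encodes colipase, was at 19.14 to 50.2 CPM against 0 to 0.0413 CPM, and Guca2b, which encodes uroguanylin, at 49.4 to 102 CPM against 0.154 to 0.536 CPM. Mptx2, a relative of Mptx1, was at 7.94 to 11.4 CPM in control 1 and 0 in all 4 control 2 libraries, at least 62.2-fold lower. The summed level of the 14 genes was 8020.1, 3474 and 8246 CPM in control 1 and 417, 381, 403 and 613 CPM in control 2, so that replicate 2 was the low library of control 1. In the hairpin libraries 8 of 12 tested genes met the rule, all lower (median -7.92).

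Goblet and enteroendocrine genes were also mostly lower. Of 23 goblet genes tested, 20 were lower and 2 higher, 12 and 1 by the large rule (median -2.45). The goblet gene higher by that rule is not among those named next. Muc2, the main intestinal mucin, was at 264, 169 and 218 CPM in control 1 and 19.13, 22.9, 23 and 54.8 CPM in control 2 (-2.85 ± 0.35 (SE), adjusted p = 7.2e-05). Control 2 replicate 4 had more Muc2 than the other 3 but less than any control 1 library. Spink4, a secreted peptide on both the Paneth and the goblet list, was at 614, 176 and 420.02 CPM in control 1 and 0.0931, 0.206, 0.158 and 0.495 CPM in control 2 (-10.66 ± 0.57 (SE), adjusted p = 4.5e-07). Atoh1, the switch into the secretory lineage, was at 24.6 to 34.8 CPM against 3.58 to 5.12 CPM (-2.70). Spdef, a factor that drives goblet maturation, was at 61.3 to 105 CPM against 1.85 to 3.05 CPM (-5.16). Both regulators were thus lower in every control 2 library. Tff3, a trefoil peptide secreted with mucus, was at 441 to 833 CPM against 21.6 to 56.4 CPM, and Zg16, a lectin of goblet granules, at 34.2 to 70.1 CPM against 2.4 to 7.1 CPM. Klk1, a kallikrein protease, was at 50.6 to 129.7 CPM against 0.276 to 0.536 CPM, uncertain with 28.4% shared sequence. Clca1 overlapped between groups at 4.68 to 17.7 CPM against 6.38 to 8.25 CPM and did not pass the test (-0.53 ± 0.38 (SE), adjusted p = 0.24), though it passed without control 1 replicate 2 (-0.87) and changed sign without replicate 3 (0.14). Between hairpin groups, 4 of 20 goblet genes met the rule as lower and 1 as higher (median -2.56). Of 27 enteroendocrine genes only 6 were tested, 4 lower and 2 higher, with 3 lower by the large rule. The median was -4.30 and the mean -2.27, so members differed in direction. The 2 higher genes fell short of the large rule, and only lower ones are named next. Neurog3, the transcription factor that founds this lineage, was at 10.7, 3.76 and 8.73 CPM in control 1 and 0.0465, 0.103, 0 and 0.0413 CPM in control 2 (-7.24 ± 0.60 (SE), adjusted p = 6.0e-06). Insm1, a second factor of endocrine cells, was at 4.96 to 9.71 CPM against 0.165 to 0.394 CPM. Cpe, which encodes a hormone-processing enzyme, was at 48.1 to 96.2 CPM against 2.42 to 9.41 CPM.

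**Figure D2:**
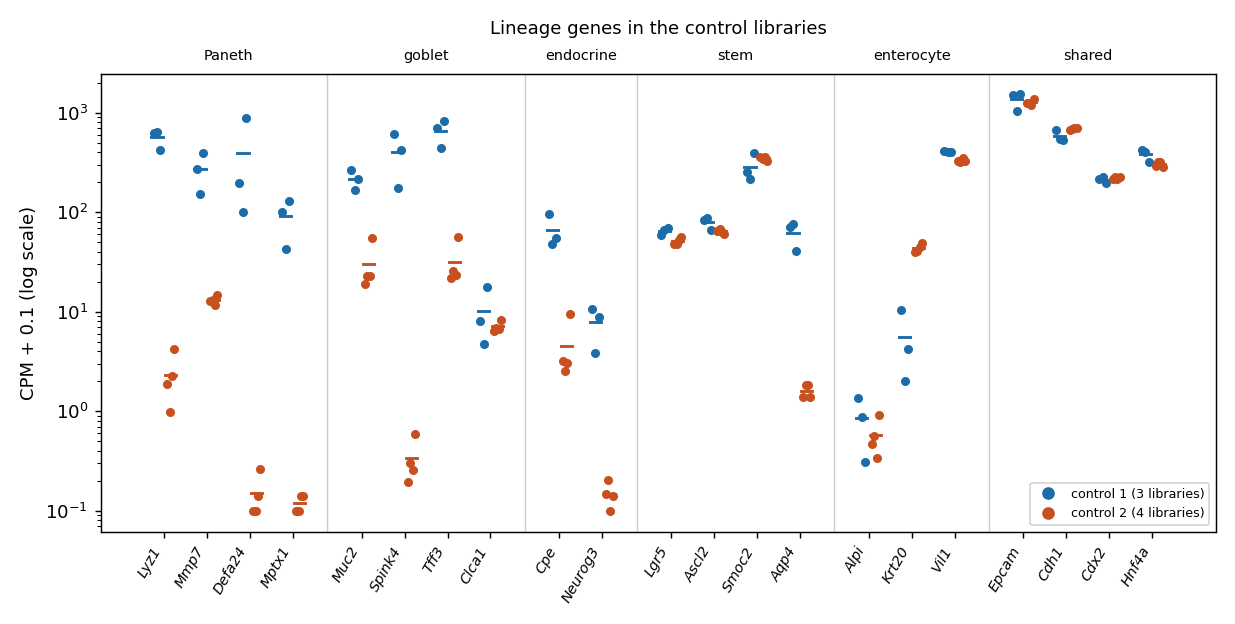
CPM plus 0.1 on a log axis for genes of intestinal lineages, 1 point per library, with control 1 in blue (3 libraries), control 2 in orange (4 libraries) and bars at the group means. The Paneth, endocrine and most goblet genes shown lie far lower in control 2, whereas Lgr5, Ascl2, Smoc2 and the shared epithelial genes lie at similar levels in both. Aqp4, shown with the stem cell genes, lies far lower in control 2, and Krt20, shown with the enterocyte genes, lies higher.

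Stem cell genes did not shift one way. Of 26 tested, 10 were higher and 13 lower, with 4 and 3 by the large rule (median -0.32). Lgr5, the receptor that marks crypt base stem cells, was at 59.7, 66.3 and 69.7 CPM in control 1 and 47.6, 47.4, 52.6 and 56.5 CPM in control 2 (-0.35 ± 0.11 (SE), adjusted p = 0.016). The groups did not overlap, but the difference was small. Its call was lost without control 2 replicate 1 or 2 (adjusted p = 0.070 and 0.071) and in a model of all 14 libraries (0.35), and the difference was -0.75 with the trend removed. Ascl2, a stem cell transcription factor, was at 66.8 to 87.6 CPM against 60.7 to 68.3 CPM (-0.29 ± 0.11 (SE), adjusted p = 0.044), a call that was lost without any library other than control 1 replicate 3 (0.082 to 0.12). Smoc2 overlapped at 215 to 391 CPM against 325 to 361 CPM (0.28 ± 0.18 (SE), adjusted p = 0.2). Other members of the list differed widely. Tnfrsf19, a receptor gene that Wnt signals switch on, was at 59.5, 51.1 and 51.2 CPM in control 1 and 291, 294, 290.1 and 301 CPM in control 2 (2.45 ± 0.10 (SE), adjusted p = 7.5e-08). Msi1, an RNA-binding protein, was at 0.213 to 1.27 CPM against 36.8 to 41.3 CPM, and Clca3b at 7.86 to 10 CPM against 96.7 to 124 CPM. Aqp4, a water channel, was lower, at 70.6, 75.4 and 40.9 CPM in control 1 and 1.3, 1.75, 1.73 and 1.28 CPM in control 2 (-5.36 ± 0.25 (SE), adjusted p = 2.2e-07). Rgmb was at 63.9 to 157 CPM against 21 to 23.6 CPM, and fell below the rule without control 1 replicate 3 (-1.80).

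Enterocyte genes were more often lower than higher. Of 24 tested, 16 were lower and 6 higher, 4 and 2 by the large rule (median -1.05). Those large shares were 16.7% and 8.33%, beside 5.57% and 5.58% over all genes. Slc5a1, Slc10a2 and Mep1a, named next for their small p, are all lower and do not stand for the higher members. Krt20, the keratin of differentiated intestinal cells given above, was higher between controls (3.0) but not between hairpins (-1.76). Slc5a1, the sodium-glucose transporter, was at 50.3 to 67.4 CPM against 9.63 to 13.4 CPM (-2.43). Slc10a2, the ileal bile acid transporter, was at 16 to 26.2 CPM against 0.977 to 1.62 CPM (-4.14). Mep1a, a brush border protease, was at 8.08 to 12 CPM against 0.308 to 0.495 CPM (-4.58). Alpi, the intestinal alkaline phosphatase, was low in both groups at 0.211 to 1.27 CPM against 0.237 to 0.825 CPM and did not pass (-0.66 ± 0.58 (SE), adjusted p = 0.33), although it did with the trend removed (-1.57, adjusted p = 0.038). Of 22 tuft cell genes 7 were tested, 3 higher and 3 lower, with 2 and 0 by the large rule. The median was -0.80, and -1.72 with the trend removed, so the list did not shift upward with the 2 genes named next. Avil, which encodes the actin-binding protein advillin, was at 2.55, 3.4 and 6.61 CPM in control 1 and 238, 234, 240.3 and 284 CPM in control 2 (5.89 ± 0.29 (SE), adjusted p = 2.8e-07). Plcg2, a phospholipase, was at 2.2 to 4.29 CPM against 13.4 to 18.6 CPM, and fell below the rule without control 1 replicate 2 (1.98) and with the trend removed (1.79).

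Genes of fetal-like and regenerating epithelium were split. Of 28 tested, 8 were higher and 11 lower, 3 and 7 by the large rule (median -0.12). Between the hairpin groups 10 of the list met the rule, all lower. Ly6a, which encodes the surface protein Sca-1, was at 1874, 941 and 1398 CPM in control 1 and 109, 116, 109.8 and 181 CPM in control 2 (-3.45 ± 0.26 (SE), adjusted p = 3.7e-06). Its relative Ly6c1, uncertain with 30.7% shared sequence, was at 230.2 to 428 CPM against 3.35 to 9.37 CPM. Clu, which encodes clusterin, was at 12.5 to 15.6 CPM against 2.1 to 2.96 CPM, and Msln, which encodes mesothelin, at 54 to 74.3 CPM against 11.7 to 17.1 CPM; Msln fell below the rule with the trend removed (-1.77). Anxa1 went the other way, at 358 to 519.8 CPM against 1729.6 to 1992 CPM (2.11, and 1.98 without control 1 replicate 3, below the rule). Of 15 squamous genes tested, 6 were higher and 6 lower, 3 and 2 by the large rule. Sprr2a3, a cornified envelope protein, was at 709 to 1096 CPM against 17.3 to 36.8 CPM, uncertain with 61.1% shared sequence. Sfn, which encodes a 14-3-3 protein, was at 111 to 155 CPM against 23.2 to 24.8 CPM. Pkp1, a desmosome protein, was higher, at 165 to 239 CPM against 750.01 to 1076 CPM. Sox2, a transcription factor of foregut and squamous epithelium, was at 7.01, 9.64 and 43.8 CPM in control 1 and 250.1, 236, 233 and 240.3 CPM in control 2 (3.57 ± 0.57 (SE), adjusted p = 3.7e-04). Control 1 replicate 3 had more Sox2 than the other 2 of its group, yet less than any control 2 library.

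Among 31 keratin and junction genes tested, 16 were higher and 7 lower, 2 and 1 by the large rule. Those large shares, 6.45% and 3.23%, lie near the 5.58% and 5.57% over all genes. The keratin gene Krt23 was at 29.5 to 88.7 CPM against 652 to 1065 CPM, and Cldn15, a claudin of the small intestine, at 177 to 232 CPM against 15.5 to 23.9 CPM. Of 9 genes of mesenchymal transition tested, 6 were higher and 1 lower, 2 and 1 by the large rule. The lower one was Vim, which encodes the intermediate filament vimentin, at 100.1 to 287 CPM against 3.17 to 4.11 CPM (-5.63). The matrix gene Thbs1 was at 7.94 to 26.5 CPM against 265 to 305 CPM. Fn1, which encodes fibronectin, was at 13.5 to 70.6 CPM against 146 to 267 CPM, below the rule with the trend removed (2.21).

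Among 26 intestinal transcription factors tested, 9 were higher and 9 lower, 2 and 3 by the large rule. The shares past the test are near those over all genes (36% and 34.4%). Cdx1, a relative of Cdx2, was at 318, 357 and 433 CPM in control 1 and 42.3, 43.2, 37.5 and 46.6 CPM in control 2 (-3.12 ± 0.13 (SE), adjusted p = 9.9e-08), while Cdx2 overlapped between groups. Pdx1, a factor of duodenum and pancreas, was at 5.35 to 12.9 CPM against 0 to 0.0514 CPM, with 1 count in all of control 2. Prdm1, a repressor of the immature intestine, was at 5.77 to 16.1 CPM against 222 to 293 CPM (4.58). Onecut2 was at 0.638 to 1.91 CPM against 41.4 to 51.4 CPM (5.32). Hox genes encode factors that record position along the body axis. Of 20 tested, 16 were higher in control 2 and 1 lower, with 6 higher by the large rule and 0 lower (median 1.78). All 6 lie in the Hoxb cluster on chromosome 11. Hoxb9 was at 75.7, 52.6 and 84.4 CPM in control 1 and 604, 564, 588 and 559 CPM in control 2 (3.03 ± 0.17 (SE), adjusted p = 5.0e-07). The others were Hoxb8 (6.05 to 9.93 CPM against 64.6 to 80.3 CPM), Hoxb7 (8.66 to 13.9 CPM against 79.5 to 99.5 CPM), Hoxb5 (6.02 to 9.71 CPM against 35.7 to 53 CPM), Hoxb4 (0.566 to 2.34 CPM against 8.98 to 10 CPM) and Hoxb3 (0.0704 to 1.28 CPM against 19.9 to 22.9 CPM). Between the hairpin groups 6 Hox genes met the rule, all higher.

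Of 11 genes of gastric, pancreatic and biliary epithelium tested, 7 were lower and 3 higher, 4 and 1 by the large rule. Cftr, the chloride channel, was at 19.6 to 48.4 CPM against 3.63 to 7.59 CPM. Cela1, a pancreatic elastase, was at 32 to 51.4 CPM against 5.41 to 7.4 CPM, and fell below the rule with a replicate block and the trend removed together (-1.92). Muc1, a membrane mucin, was at 2.6 to 8.15 CPM against 0.36 to 0.825 CPM, and fell below the rule without control 1 replicate 2 (-2.75). Of 15 colon genes, 8 were lower and 4 higher, 4 and 0 by the large rule, among them Lypd8, a secreted protein of colonic epithelium, at 207 to 569.9 CPM against 29.6 to 59.9 CPM.

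**Figure D3:**
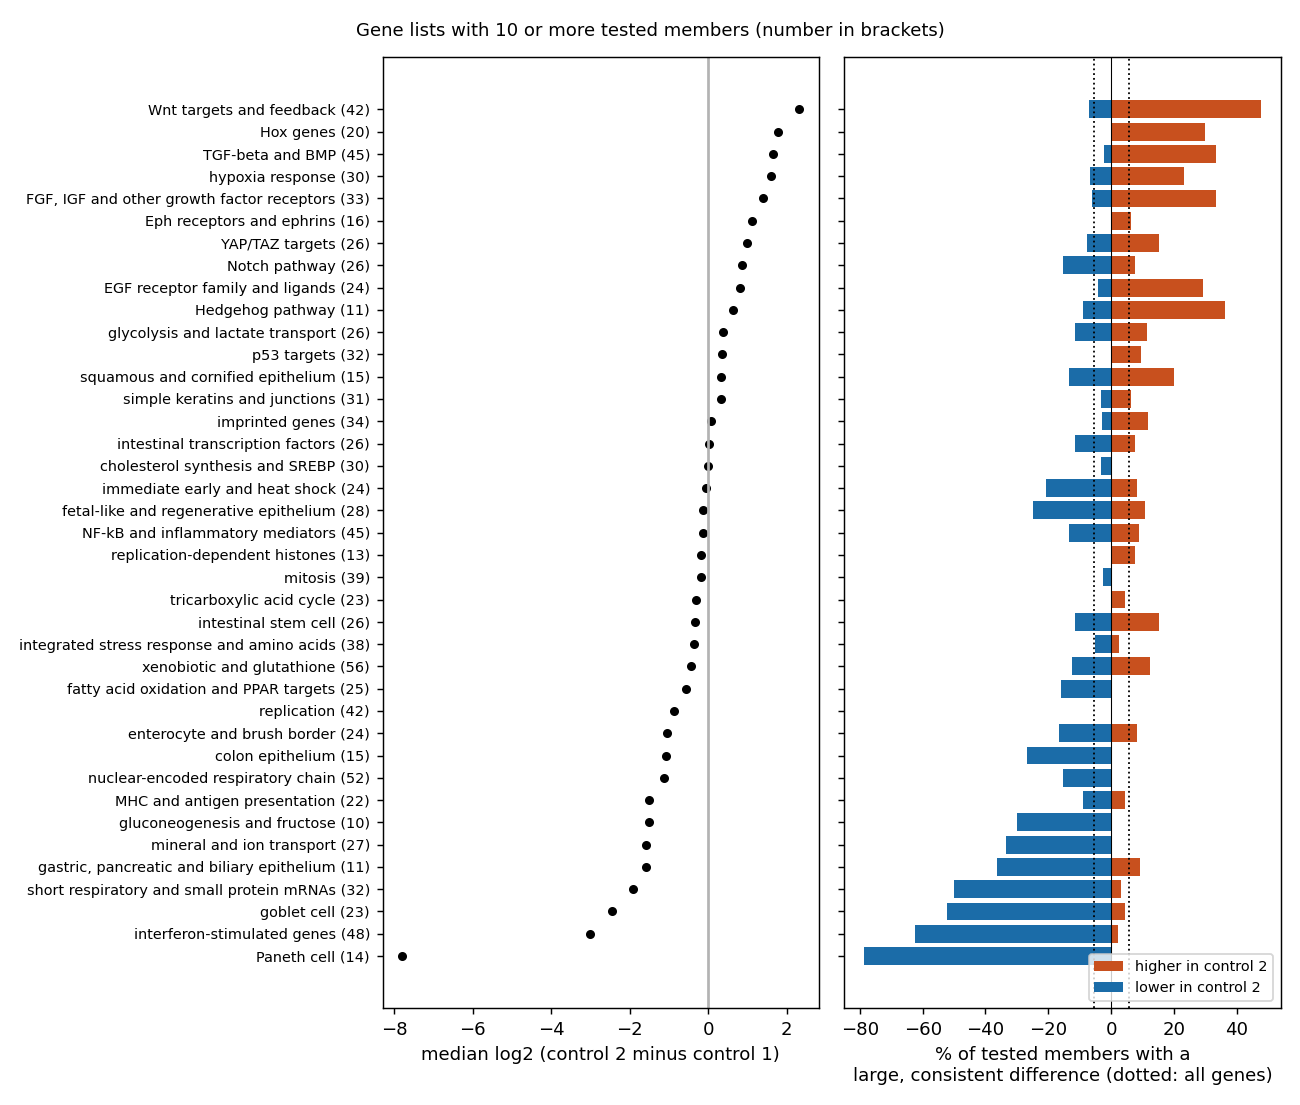
Median log2 difference between control 2 and control 1 (left) and percent of tested members with a large and consistent difference (right; higher in orange, lower in blue) for lists with 10 or more tested members, whose number is in brackets. Dotted lines mark 5.58% higher and 5.57% lower over all genes; Wnt targets lie at the top with a median of 2.31 and Paneth cell genes at the bottom with -7.79.

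Wnt targets and feedback genes had the highest median of the lists with 10 or more tested genes. Wnt ligands bind Frizzled receptors and stabilise beta-catenin, which with TCF and LEF factors switches on target genes, several of which encode inhibitors of the pathway. Of 42 genes tested, 30 were higher and 7 lower in control 2, 20 and 3 by the large rule, beside 5.58% and 5.57% of all genes. The median was 2.31 (1.86 with the trend removed and 2.08 with genes at 0 set to their bound). The summed level of the 42 was 2906, 2552 and 3094 CPM in control 1 and 11049, 10614, 10636 and 10140.1 CPM in control 2. Among inhibitors that are themselves targets, Axin2 (ENSMUSG00000000142, chr11:108920349-108950783) was at 213, 231 and 190.1 CPM in control 1 and 1626, 1542, 1603 and 1355 CPM in control 2 (2.86 ± 0.12 (SE), adjusted p = 9.8e-08). Notum, an enzyme that inactivates Wnt ligands, was at 48.1, 44.7 and 87.4 CPM in control 1 and 401, 373, 343 and 436 CPM in control 2 (2.69 ± 0.24 (SE), adjusted p = 9.0e-06). Apcdd1, a membrane inhibitor, was at 18.5, 10.1 and 37.1 CPM in control 1 and 1758, 1635, 1661 and 1470.2 CPM in control 2 (6.22 ± 0.43 (SE), adjusted p = 2.1e-06). For all 3 inhibitors every control 2 library lay well above every control 1 library. Nkd1, an intracellular inhibitor, was at 109 to 308 CPM against 1684 to 1829 CPM (3.21), and Wif1, a secreted antagonist, at 12.8 to 51.9 CPM against 734 to 941 CPM (4.41). The transcription factor gene Lef1 was at 9.5 to 27 CPM against 112 to 116 CPM (2.75). Of the receptors, Fzd10 was at 8.85, 15 and 17 CPM in control 1 and 281, 266, 255 and 289.8 CPM in control 2 (4.32 ± 0.22 (SE), adjusted p = 2.9e-07). Of the ligands, Wnt5a was at 0 in all 3 control 1 libraries and 25.4, 20.8, 24.4 and 25.4 CPM in control 2, at least 113-fold higher. Wnt6 was at 12.9 to 30.6 CPM against 194 to 321 CPM and Wnt10a at 1.7 to 11.3 CPM against 65.7 to 107 CPM.

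The 3 genes of the Wnt list that were lower by the large rule were ligands and a receptor. Wnt3, a ligand that Paneth cells make, was at 7.52 to 26.8 CPM against 1.21 to 1.82 CPM (-3.51). Wnt7b was at 6.61 to 23.9 CPM against 1.77 to 2.56 CPM (-2.56). Without control 1 replicate 1 the Wnt7b difference was -1.77, below the rule, and in a model of all 14 libraries it missed the test (adjusted p = 0.062). Fzd9 was at 8.3 to 28.4 CPM against 3.31 to 3.86 CPM (-2.16), and -1.47 without control 1 replicate 3, below the rule. Lgr5 and Ascl2, which belong to the list too, were not higher, as given above. In the hairpin libraries 17 of 42 genes met the rule, all higher (median 2.00).

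TGF-beta and BMP genes were higher in 34 and lower in 2 of 45 tested, 15 and 1 by the large rule (median 1.66). Ligands of this family act through receptor kinases and Smad proteins. Tgfb2, a ligand, was at 0.354, 0.213 and 0.844 CPM in control 1 and 78, 82.3, 81.5 and 105 CPM in control 2 (7.51 ± 0.31 (SE), adjusted p = 8.7e-08). Inhbb, which encodes the beta-B subunit of activin and inhibin, was at 0 in all 3 control 1 libraries and 44.1, 36.4, 36.5 and 33.9 CPM in control 2, at least 177-fold higher. The ligand genes Bmp4 and Bmp2 were at 0.915 to 3.12 CPM against 47.2 to 60 CPM and at 13 to 31.2 CPM against 179.6 to 268 CPM, and every control 2 library lay above every control 1 library for each of these ligand genes. Ltbp1, which holds TGF-beta in the matrix, was at 0 to 0.0709 CPM against 33.3 to 35.6 CPM, with 1 count in control 1. Smad7, an inhibitor and target of the pathway, was at 10.6 to 19 CPM against 119 to 133 CPM (3.20), and the target Id4 at 0.0708 to 0.567 CPM against 23.7 to 30.7 CPM (6.22). Id1, another target, overlapped at 102 to 223 CPM against 116 to 151 CPM and did not pass (-0.27 ± 0.23 (SE), adjusted p = 0.32); its sign changed without control 1 replicate 3 (0.09). Chrd, a BMP antagonist, was the gene lower by the large rule, at 6.17 to 9.77 CPM against 0.463 to 1.11 CPM. In the hairpin libraries 17 genes of the list were higher and 1 lower by the rule (median 1.29).

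Growth factor genes were higher more often than lower. Of 33 FGF, IGF and related genes tested, 21 were higher and 8 lower, 11 and 2 by the large rule (median 1.40). Fgf20 was at 0.212, 0.142 and 0.281 CPM in control 1 and 67.5, 63.3, 64.7 and 60.7 CPM in control 2 (8.19 ± 0.20 (SE), adjusted p = 7.6e-09). Fgf3 was at 0 in all 3 control 1 libraries and 51.7, 49.4, 45.8 and 50.8 CPM in control 2, at least 232-fold higher. Both ligands were thus at or near 0 in every control 1 library. Igf1, a ligand of the insulin-like family, was at 0.142 to 2.53 CPM against 56.9 to 82.2 CPM, and Igfbp3, a binding protein of that ligand, at 0 to 0.142 CPM against 45.8 to 53.5 CPM. Ngfr, a neurotrophin receptor, was at 0.922 to 1.13 CPM against 80.8 to 171 CPM. The 2 lower genes were Fgfbp1, a carrier that releases FGFs from matrix, at 176, 169 and 203 CPM in control 1 and 7.59, 8.95, 8.71 and 12.2 CPM in control 2 (-4.28 ± 0.17 (SE), adjusted p = 7.1e-08), and the receptor gene Fgfr4, at 42.9 to 68.6 CPM against 1.77 to 2.72 CPM.

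Of 24 genes of the EGF receptor family and its targets tested, 15 were higher and 5 lower, 7 and 1 by the large rule (median 0.80). Egfr was at 34.1, 22.6 and 19.5 CPM in control 1 and 155, 143, 159 and 126 CPM in control 2 (2.52 ± 0.20 (SE), adjusted p = 4.2e-06). Its ligand Tgfa was at 38.9, 32.2 and 33.6 CPM in control 1 and 279.97, 274, 277 and 310.01 CPM in control 2 (3.03 ± 0.11 (SE), adjusted p = 4.8e-08). Feedback inhibitors of receptor signalling were higher too: Spry1 was at 13.7 to 14 CPM against 133 to 145 CPM, Spry4 at 5.77 to 7.86 CPM against 54.2 to 79.1 CPM and Dusp4 at 52 to 173 CPM against 569 to 605 CPM. Dusp6, a phosphatase of ERK, was at 31.8 to 46 CPM against 146 to 190.2 CPM, with a difference of 1.99 just short of the rule. Between hairpins Spry1 differed by 2.83 (adjusted p = 2.5e-04), while Spry4 (1.18, adjusted p = 0.37), Dusp4 (0.84, 0.53) and Dusp6 (0.88, 0.31) did not pass the test. That fit includes hairpin 1 replicate 1, which stood apart from its group as given above. Etv5, a transcription factor downstream of ERK, was at 21.7 to 62.2 CPM against 662 to 736 CPM, uncertain with 26.8% shared sequence. The ligand Areg went the other way, at 147, 77.8 and 95.3 CPM in control 1 and 7.4, 7.15, 8.08 and 17 CPM in control 2 (-3.42 ± 0.34 (SE), adjusted p = 1.9e-05). In the hairpin comparison 8 of 24 genes of the list were higher and 4 lower, 4 and 2 by the large rule (median 0.38).

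**Figure D4:**
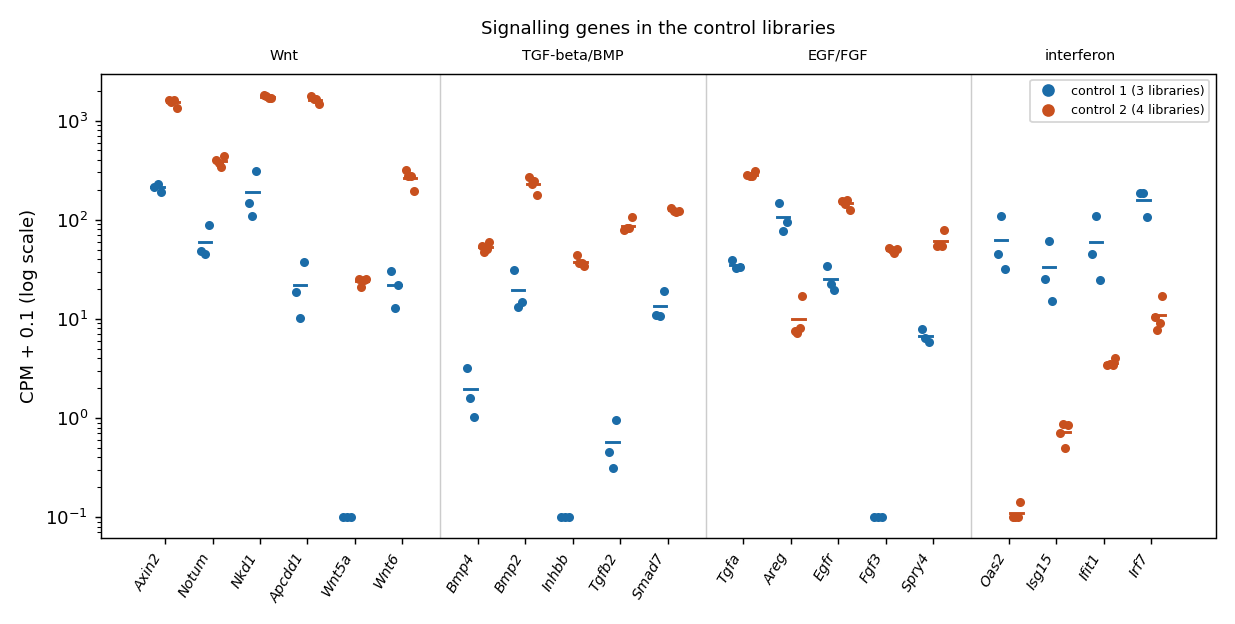
CPM plus 0.1 on a log axis for signalling genes, 1 point per library, with control 1 in blue (3 libraries), control 2 in orange (4 libraries) and bars at the group means. The Wnt, TGF-beta/BMP and EGF/FGF genes shown lie higher in control 2 except Areg, and the interferon genes lie lower; no gene shown has overlapping groups.

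Of 11 Hedgehog genes tested, 7 were higher and 2 lower, 4 and 1 by the large rule. Ptch1, a receptor that is also a target of the pathway, was at 16.2 to 36.8 CPM against 139 to 172 CPM. Kif7, a regulator of the pathway in the cilium, was at 0.0704 to 0.637 CPM against 9.56 to 9.97 CPM. The coreceptor gene Boc was lower, at 9.78 to 19.3 CPM against 0.838 to 1.26 CPM. Of 26 Notch genes, 16 were higher and 7 lower, 2 and 4 by the large rule. Dll1, a ligand made by secretory cells, was at 10.1 to 14.8 CPM against 0.394 to 0.495 CPM (-4.72), and the receptor gene Notch3 at 0.851 to 3.61 CPM against 40.7 to 58.2 CPM (4.82). Dtx4 was at 79.5 to 95.8 CPM against 15.9 to 25 CPM, and -1.97 without control 2 replicate 1, below the rule. Atoh1, given above, is on this list too. Of 26 YAP and TAZ targets, 17 were higher and 5 lower, 4 and 2 by the large rule, with Amotl1 at 4.96 to 8.71 CPM against 91 to 107 CPM and Rbms3 at 7.73 to 15.9 CPM against 167 to 192 CPM. Of 16 Eph receptor and ephrin genes 10 were higher and 4 lower. Ephb6 alone met the large rule (6.25% of those tested, beside 5.58% of all genes), at 2.48 to 6.59 CPM against 25.8 to 33.1 CPM.

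Interferon-stimulated genes were lower in control 2. Interferons bind receptors at the cell surface and, through transcription factors, switch on antiviral genes, many of which carry a paired GAAA element in their promoters. Of 48 genes tested, 41 were lower and 4 higher, 30 and 1 by the large rule, beside 5.57% and 5.58% of all genes. The median was -3.0 (-2.82 without genes of shared sequence, -3.26 with the trend removed and -2.44 without control 1 replicate 2). The summed level of the 48 was 4509, 4805 and 4076 CPM in control 1 and 2930.2, 3004, 2774 and 2757 CPM in control 2, a smaller gap than the median gene's. Oas2, an antiviral RNA sensor (ENSMUSG00000032690, chr5:120730333-120749853), was at 44.8, 109.98 and 31.7 CPM in control 1 and 0, 0, 0 and 0.0413 CPM in control 2. Control 2 held 1 count of it, so control 1 was higher by a ratio of 5617 with an exact counting interval (95%) of 1007 to 221961. Oas3 was at 59.5, 83 and 19.6 CPM in control 1 and 0.14, 0, 0.0788 and 0.0413 CPM in control 2 (-9.54 ± 0.68 (SE), adjusted p = 2.5e-06). Their relatives Oas1a (77.1 to 122 CPM against 0.0514 to 0.158 CPM) and Oas1g (7.32 to 12 CPM against 0 to 0.0413 CPM) are uncertain, with 56.9% and 54.7% shared sequence. Ifi27l2b was at 265, 199 and 197 CPM in control 1 and 0.512, 0.668, 0.749 and 0.949 CPM in control 2 (-8.23 ± 0.20 (SE), adjusted p = 9.1e-09), and Ifi27 at 209 to 544 CPM against 2.33 to 4.75 CPM. Isg15, a ubiquitin-like protein, was at 24.9, 60.6 and 15.1 CPM in control 1 and 0.605, 0.771, 0.394 and 0.743 CPM in control 2 (-5.74 ± 0.51 (SE), adjusted p = 9.2e-06). Ifit1, which binds viral RNA, was at 44.6, 110.3 and 24.5 CPM in control 1 and 3.35, 3.44, 3.35 and 3.92 CPM in control 2 (-4.08 ± 0.45 (SE), adjusted p = 3.7e-05). Rsad2, which encodes the antiviral enzyme viperin, was at 15.2, 45.5 and 8.3 CPM in control 1 and 1.35, 1.39, 2.17 and 1.24 CPM in control 2 (-3.89 ± 0.54 (SE), adjusted p = 1.6e-04). For these last 3 genes control 1 replicate 2 was the highest library and replicate 3 the lowest of its group, and every control 2 library lay below them. The transcription factor gene Irf7 was at 106 to 186 CPM against 7.56 to 16.8 CPM. Irgm2, an interferon-induced GTPase, was the one higher gene by the large rule, at 5.49 to 16 CPM against 36.7 to 49 CPM (2.18), but it fell below the rule without control 1 replicate 1 (1.94) or 3 (1.91). In the hairpin libraries 21 of 49 tested genes were lower and 2 higher by the rule (median -2.15).

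Promoters of 4 of these genes are shown because they carry the paired element. They run from 250 bases before to 50 after the gene's start in RefSeq (GRCm38.p6), 5′ to 3′ along the gene, with each match to GAAANNGAAA on either strand in capitals (overlapping matches run together). Ifit1 is at chr19:34640639-34640938 on the plus strand, Isg15 at chr4:156200769-156201068 on the minus strand, Rsad2 at chr12:26456403-26456702 on the minus strand and Ifit3 at chr19:34583279-34583578 on the plus strand. Ifit3 had 5.56 to 35 CPM against 0.0788 to 0.206 CPM, uncertain with 51.2% shared sequence.
Ifit1: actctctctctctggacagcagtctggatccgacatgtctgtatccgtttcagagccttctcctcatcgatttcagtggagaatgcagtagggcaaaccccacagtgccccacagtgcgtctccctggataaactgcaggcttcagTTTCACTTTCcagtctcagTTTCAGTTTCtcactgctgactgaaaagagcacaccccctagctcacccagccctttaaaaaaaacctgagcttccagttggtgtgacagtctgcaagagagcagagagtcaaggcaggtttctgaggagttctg
Isg15: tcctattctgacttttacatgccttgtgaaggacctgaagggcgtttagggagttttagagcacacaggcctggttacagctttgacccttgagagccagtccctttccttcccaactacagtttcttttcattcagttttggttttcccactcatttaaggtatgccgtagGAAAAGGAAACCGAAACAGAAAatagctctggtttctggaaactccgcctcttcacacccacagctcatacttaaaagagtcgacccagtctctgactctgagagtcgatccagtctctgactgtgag
Rsad2: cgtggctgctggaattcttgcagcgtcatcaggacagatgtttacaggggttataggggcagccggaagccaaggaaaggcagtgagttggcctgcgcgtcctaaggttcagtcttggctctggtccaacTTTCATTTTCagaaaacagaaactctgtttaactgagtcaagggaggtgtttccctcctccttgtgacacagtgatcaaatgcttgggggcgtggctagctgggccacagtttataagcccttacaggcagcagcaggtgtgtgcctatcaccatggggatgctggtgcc
Ifit3: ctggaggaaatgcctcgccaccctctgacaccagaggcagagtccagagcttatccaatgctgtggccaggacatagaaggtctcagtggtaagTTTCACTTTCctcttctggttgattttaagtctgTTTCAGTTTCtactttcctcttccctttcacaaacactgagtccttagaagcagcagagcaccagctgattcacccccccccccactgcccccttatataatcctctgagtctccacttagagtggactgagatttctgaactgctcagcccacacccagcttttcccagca
Of the 48 genes, 34 had a promoter in the RefSeq table, and 19 of them (55.9%) held the element, against 3.99% of 27025 genes with a promoter. For the Wnt list the TCF-type motifs ATCAAAG and TTCAAAG, on either strand, were found in 3 (10.3%) and 1 (3.45%) of 29 genes, against 4.29% and 5.93% of all genes. A match of letters is a description and not a binding site.

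Antigen presentation and inflammatory genes were less uniform. Of 22 genes of the MHC and antigen presentation list tested, 15 were lower and 3 higher, 2 and 1 by the large rule. The immunoproteasome subunit Psmb9 was at 4.68 to 6.97 CPM against 0.0514 to 0.14 CPM, and the peptide transporter Tap1 at 20.4 to 32.4 CPM against 2.56 to 4.42 CPM. H2-Q7 was higher, at 0.281 to 1.06 CPM against 10.1 to 14.8 CPM, uncertain with 25.3% shared sequence. Of 45 NF-kB and inflammatory genes, 19 were lower and 16 higher, 6 and 4 by the large rule. The adhesion molecule Icam1 was at 28.9 to 40.1 CPM against 0.578 to 1.18 CPM, and Pigr, which carries antibodies across the epithelium, at 369.99 to 908 CPM against 23.7 to 54.8 CPM. The chemokine Cxcl5 was higher, at 0.779 to 3.9 CPM against 159 to 195 CPM, as was the cytokine Tnf, at 5.63 to 6.37 CPM against 29.7 to 40.1 CPM. Of 32 p53 targets, 14 were higher and 6 lower, 3 and 0 by the large rule. The share higher by that rule was 9.38%, beside 5.58% over all genes. The 3 genes were Phlda3, Pmaip1 and Dusp4, which is given above among feedback inhibitors of receptor signalling. Phlda3 was at 6.59 to 12.6 CPM against 53.6 to 78.5 CPM. Pmaip1, a proapoptotic gene, was at 17.9 to 62.4 CPM against 153 to 190.2 CPM, and fell below the rule without control 1 replicate 2 (1.93) and with the trend removed (1.83).

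Genes of the hypoxia response, which HIF factors switch on when oxygen is low, were mostly higher in control 2. Of 30 tested, 21 were higher and 6 lower, 7 and 2 by the large rule (median 1.59). Hif1a itself was at 96.9, 107 and 91.3 CPM in control 1 and 497, 467, 541 and 491 CPM in control 2 (2.34 ± 0.10 (SE), adjusted p = 1.3e-07). Vegfa, the vascular growth factor, was at 108, 87 and 69.7 CPM in control 1 and 1229.6, 1166, 1182 and 1471 CPM in control 2 (3.84 ± 0.18 (SE), adjusted p = 1.9e-07). Plod2, a collagen-modifying enzyme, was at 0.212, 0.142 and 0 CPM in control 1 and 79.5, 66.3, 84.2 and 57.4 CPM in control 2 (9.17 ± 0.37 (SE), adjusted p = 8.6e-08). In all 3 genes the groups lay several-fold apart with no overlap. The oxidoreductase gene Ero1l was at 81.9 to 167 CPM against 1239 to 1408 CPM (3.5). P4ha2, a collagen hydroxylase, was at 33.7 to 70.7 CPM against 280.2 to 333 CPM, and Stc1, a secreted glycoprotein, at 4.15 to 5.81 CPM against 32.7 to 50 CPM. Egln3, an oxygen-sensing hydroxylase and HIF target, was at 119.5 to 398 CPM against 1128 to 1322 CPM (2.29), and 1.95 without control 1 replicate 3, below the rule. Car12, a carbonic anhydrase, and Adm, which encodes adrenomedullin, were lower, at 14.8 to 17.2 CPM against 0.698 to 2.93 CPM and at 4.71 to 18.5 CPM against 0.0514 to 0.495 CPM. In the hairpin libraries 10 genes of the list were higher and 0 lower by the rule (median 1.27). The core of the HIF element, ACGTG on either strand, occurred in the promoter window of 16 of 24 list genes in the table (66.7%) and of 21.8% of all genes. The Egln3 window (chr12:54203825-54204124 on the minus strand, GRCm38.p6) is shown as an example, with the match in capitals.
Egln3: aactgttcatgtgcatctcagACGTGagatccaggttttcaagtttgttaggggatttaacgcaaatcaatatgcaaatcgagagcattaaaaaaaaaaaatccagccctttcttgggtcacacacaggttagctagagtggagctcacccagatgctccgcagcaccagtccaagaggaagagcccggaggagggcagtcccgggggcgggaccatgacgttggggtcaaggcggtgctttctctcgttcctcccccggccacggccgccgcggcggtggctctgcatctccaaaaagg

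Glycolysis and lactate transport did not shift one way, with 10 of 26 tested genes higher and 10 lower, 3 and 3 by the large rule (median 0.39). Gapdh was at 6092, 3841 and 5138 CPM in control 1 and 368, 353, 409 and 394 CPM in control 2 (-3.72 ± 0.16 (SE), adjusted p = 1.2e-07). Pgam1 was at 242 to 327 CPM against 62.6 to 67.6 CPM and Ldhb, a lactate dehydrogenase subunit, at 0.142 to 0.352 CPM against 27.1 to 41.2 CPM. All 3 are uncertain, with 27.2%, 41.5% and 27.0% shared sequence, and Pgam1 fell below the rule with the trend removed (-1.67). Of 10 genes of gluconeogenesis and fructose metabolism, 8 were lower and 0 higher, 3 lower by the large rule (median -1.51). Among these were Akr1b8, an aldo-keto reductase, at 66.4 to 129.7 CPM against 6.11 to 18.7 CPM, and Ppargc1a, which coactivates genes of mitochondrial biogenesis, at 18.8 to 22.7 CPM against 2.83 to 6.19 CPM. Ppargc1a was -1.94 without control 2 replicate 2 and below the rule.

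Nuclear-encoded genes of the respiratory chain were lower in 44 and higher in 2 of 52 tested, 8 and 0 by the large rule (median -1.13). Beside them stands a shift over short transcripts: a list of short respiratory and small-protein mRNAs had 29 of 32 genes lower and 2 higher, 16 and 1 by the large rule (median -1.91). With the trend removed the medians were -0.78 and -1.47, and without genes of shared sequence -1.11 and -1.59. Atp5g1, which encodes a subunit of ATP synthase, was at 295, 327 and 364 CPM in control 1 and 7.03, 6.53, 7.92 and 7.68 CPM in control 2 (-5.49 ± 0.12 (SE), adjusted p = 6.2e-09). Its paralog Atp5g2 was at 151 to 226 CPM against 2 to 2.98 CPM. Uqcrc1, a subunit of complex III, was at 567 to 693 CPM against 95.5 to 105 CPM (-2.64), below the rule with the trend removed (-1.89). Cycs, which encodes cytochrome c, was at 109.6 to 151 CPM against 1.66 to 2.28 CPM and Cox7c at 167 to 177 CPM against 12.1 to 13.7 CPM, both uncertain with 28.2% and 27.9% shared sequence. Among the short mRNAs, Sec61g, a subunit of the protein translocon, was at 104 to 130.04 CPM against 2.23 to 2.93 CPM, uncertain with 20.5% shared sequence, and Snrpg, a splicing protein, at 153 to 171 CPM against 15.8 to 18.6 CPM. Fau, which encodes a ribosomal fusion protein, was at 1421 to 2330.5 CPM against 16.1 to 19.6 CPM, uncertain with 50.8% shared sequence. It was not among the ribosomal protein genes left out, which were taken by symbol, and so remained in the totals. Genes of the mitochondrial genome, as given above, took a larger share of counts in control 2. Of 23 genes of the tricarboxylic acid cycle, 14 were lower and 4 higher, but 0 and 1 by the large rule. That one was Me3, a mitochondrial malic enzyme, at 1.06 to 6.9 CPM against 16.2 to 21.2 CPM, below the rule with the trend removed (1.98).

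Genes of fatty acid oxidation were lower in 16 and higher in 2 of 25 tested, 4 and 0 by the large rule (median -0.57). Hadhb, a subunit of the mitochondrial trifunctional protein, was at 122 to 152 CPM against 14.6 to 15.6 CPM, and Eci2, an enoyl-CoA isomerase, at 62.3 to 133 CPM against 16.1 to 19.6 CPM. Acaa2, a thiolase, was at 132 to 215 CPM against 34.3 to 46 CPM, and -1.83 without control 1 replicate 3, below the rule. Genes of cholesterol synthesis had a median of 0.01, with 9 of 30 lower and 6 higher. Idi1 alone met the large rule, at 35.8 to 91.4 CPM against 6.93 to 8.51 CPM, uncertain with 21.3% shared sequence.

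Mineral and ion transport genes were lower in 17 and higher in 6 of 27 tested, 9 and 0 by the large rule (median -1.57). The water channel gene Aqp1 was at 152, 183 and 176 CPM in control 1 and 2.37, 2.83, 2.64 and 5.41 CPM in control 2 (-5.67 ± 0.26 (SE), adjusted p = 1.9e-07). The potassium channel subunit Kcne3 was at 15.8 to 54.4 CPM against 0.14 to 0.371 CPM, and the magnesium channel Trpm6 at 8.28 to 23.5 CPM against 0.158 to 0.36 CPM. Car2, a carbonic anhydrase, was at 407 to 626 CPM against 95.1 to 172 CPM, and it fell below the rule without control 1 replicate 2 (-1.80) or without control 2 replicate 1, 2 or 3 (-1.91, -1.97 and -1.93).

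Of 56 xenobiotic and glutathione genes tested, 27 were lower and 12 higher, 7 and 7 by the large rule. Those large shares were 12.5% in each direction, beside 5.57% and 5.58% over all genes. Aldh1a3, a retinaldehyde dehydrogenase, was at 1.13, 0.851 and 0.633 CPM in control 1 and 80.3, 78.7, 82.7 and 96.1 CPM in control 2 (6.59 ± 0.20 (SE), adjusted p = 1.8e-08). Gsta3, a glutathione transferase, was at 2.25 to 10.4 CPM against 229 to 247 CPM, and Abcc2, an export pump, at 1.7 to 11.8 CPM against 157 to 231 CPM. Cyp4f14, a fatty acid hydroxylase, was at 0 to 0.0709 CPM against 5.49 to 7.84 CPM, with 2 counts in control 1. Gpx2, the intestinal glutathione peroxidase, was lower, at 891 to 1164 CPM against 196 to 233 CPM, below the rule with the trend removed (-1.93). Gstp1, another glutathione transferase, was at 394 to 553 CPM against 41.9 to 56.6 CPM, uncertain with 62.3% shared sequence. Of 38 genes of the integrated stress response and amino acid metabolism, 12 were lower and 9 higher, 2 and 1 by the large rule. Those large shares, 5.26% lower and 2.63% higher, do not exceed the 5.57% and 5.58% over all genes. Cbs, an enzyme of cysteine synthesis, was at 209, 190.2 and 205 CPM in control 1 and 10.8, 11.1, 11.8 and 9.24 CPM in control 2 (-4.23 ± 0.11 (SE), adjusted p = 1.2e-08). Phgdh, the first enzyme of serine synthesis, was at 385 to 475 CPM against 65 to 114 CPM, uncertain with 63.1% shared sequence, and fell below the rule with the trend removed (-1.79).

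Replication genes were lower in 33 and higher in 1 of 42 tested, but none met the large rule (median -0.88). Rfc5, a subunit of the clamp loader, was at 143 to 179 CPM against 42.9 to 59.6 CPM (-1.65). The helicase subunit Mcm7 was at 577 to 696 CPM against 148 to 206 CPM, uncertain with 26.0% shared sequence. Of 39 mitosis genes 14 were lower and 5 higher (median -0.18), and Ccnb1 alone met the large rule, at 125 to 184 CPM against 26.9 to 34.2 CPM, uncertain with 42.1% shared sequence. Of 13 replication-dependent histone genes, 4 were higher and 4 lower. Hist1h1c met the large rule, at 21.6 to 40.1 CPM against 116 to 145 CPM, and was 1.89 without control 1 replicate 2, below the rule.

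Imprinted genes, which are read from 1 parental copy, were higher in 15 and lower in 11 of 34 tested, 4 and 1 by the large rule. Those large shares were 11.8% and 2.94%, beside 5.58% and 5.57% over all genes. The transcription factor gene Plagl1 was at 6.94, 7.09 and 5.14 CPM in control 1 and 120.1, 109.7, 138 and 103 CPM in control 2 (4.2 ± 0.17 (SE), adjusted p = 8.7e-08). Impact was at 2.69 to 4.25 CPM against 13.3 to 16.1 CPM, and Nnat, which encodes neuronatin, at 0.352 to 0.78 CPM against 4.91 to 5.76 CPM; Nnat fell below the rule with ribosomal protein genes kept. The noncoding RNA Kcnq1ot1 was lower, at 7.79 to 18.7 CPM against 0.552 to 1.44 CPM. Of 37 germline genes 4 were tested, 3 higher and 1 lower, and Igf2bp3, an RNA-binding protein of fetal tissues and tumors, met the large rule, at 0.284 to 0.633 CPM against 13 to 17.9 CPM. Of 24 immediate early and heat shock genes, 10 were lower and 8 higher, 5 and 2 by the large rule. Zfp36, an mRNA-decay factor, was at 22 to 25.8 CPM against 103 to 146 CPM, and the mitochondrial chaperone gene Hspe1 at 241 to 291 CPM against 46.4 to 50.3 CPM. Hspb1 was at 32.8 to 42.5 CPM against 3.55 to 4.91 CPM and Hsp90aa1 at 648 to 922 CPM against 139 to 184 CPM, both uncertain with 51.6% and 58.5% shared sequence. Hsp90aa1 fell below the rule with the trend removed (-1.84).

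Defining markers of other cell types were near 0. The leukocyte marker Ptprc had at most 0.140 CPM and the macrophage marker Csf1r at most 0.0465 CPM in any control library. Col1a1 and Col3a1, fibroblast collagens, had at most 0.710 and 0.0709 CPM, and the endothelial receptors Tek and Tie1 at most 0.283 and 0.652 CPM. The summed level of 9 immune genes was 74.1 to 113 CPM in control 1 and 65.8 to 75.6 CPM in control 2. That of 10 fibroblast and muscle genes was 6.10 to 17.8 and 16 to 17.4 CPM, of 10 endothelial genes 195 to 338 and 163 to 179 CPM, and of 12 neuronal and glial genes 14.2 to 17.8 and 13.6 to 14.5 CPM. Single members differed in either direction. Vwf (133 to 274 CPM against 11.2 to 16.7 CPM), Esam (3.4 to 12.1 CPM against 1.02 to 1.18 CPM) and Ret (3.4 to 7.74 CPM against 0.103 to 0.289 CPM) were lower. Pdgfra (0.284 to 0.493 CPM against 9.08 to 11.6 CPM) and Flt1 (1.77 to 4.67 CPM against 75.2 to 88.8 CPM) were higher. Esam fell below the large rule without control 1 replicate 3 (-1.67). In bulk RNA, fewer cells of a type and less RNA per cell cannot be told apart, here and for the Paneth, goblet and other lineage genes above.

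Differences were spread unevenly over chromosomes. Relative to the median over the 10442 tested genes that averaged 5 CPM or more, the median log2 difference was 0.61 on chromosome 12 (387 genes) and -0.65 on chromosome 19 (398 genes). On the other autosomes it was -0.15 to 0.25. In single libraries the median deviation of chromosome 12 genes was -0.38 to -0.31 in control 1 and 0.21 to 0.28 in control 2. That of chromosome 19 genes was 0.33 to 0.44 and -0.31 to -0.26, so the groups did not overlap for either. Over all 10442 genes 6.22% were higher and 6.34% lower by the large rule. On chromosome 12, 51 genes (13.2%) were higher and 21 lower, and on chromosome 19, 70 (17.6%) were lower and 9 higher. The hairpin libraries gave relative medians of 0.43 and -0.59. Xist, the RNA that coats the inactive X chromosome in female cells, lies outside the autosomal comparison. Relative to the unscaled counts in the compared autosomal genes, Xist was at 453 to 619 CPM in control 1 and at 0.121 to 0.288 CPM in control 2.

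**Figure D5:**
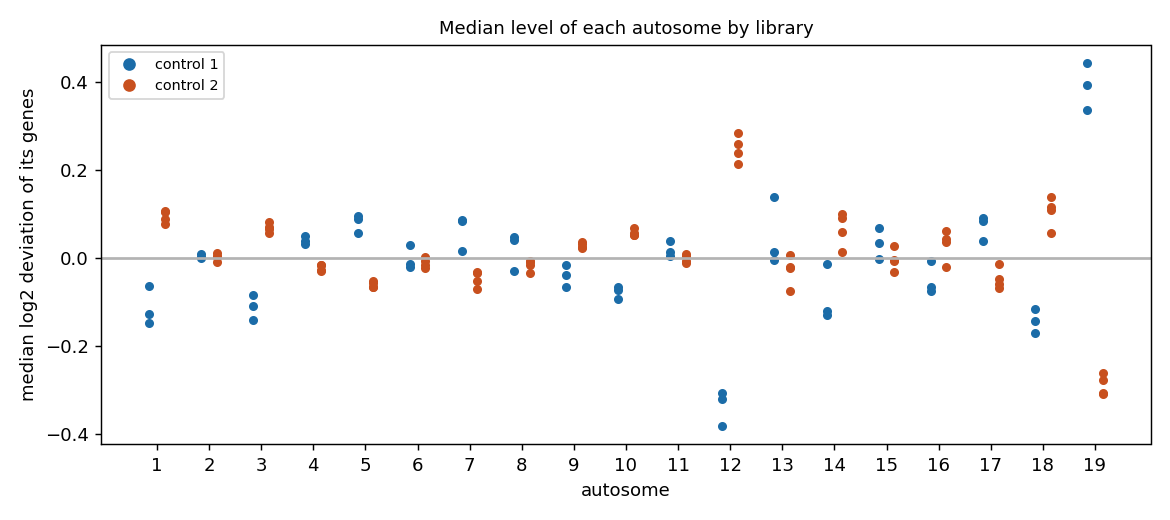
Median over genes of the log2 deviation from each gene's mean over the 7 control libraries, by autosome and library, with control 1 in blue and control 2 in orange. Chromosome 12 is low in all 3 control 1 libraries and high in all 4 control 2 libraries, and chromosome 19 the reverse.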

How the data were processed

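Poly(A) RNA from mouse organoids was sequenced from stranded TruSeq libraries, per the labels' protocols. Each library has a deposited table of whole-number read counts by gene, made by the authors. The submitters' processing notes name bcl2fastq 2.20, FastQC, STAR, featureCounts, DESeq2 and GRCm38; settings and all other versions were not given in the sources used here. The files of control 1 and hairpin 1 (set 1) list 55421 genes and those of set 2 list 17490, with 17487 in both. Names and coordinates come from GENCODE M21 (GRCm38), which matched 17471 of these. Of 16954 autosomal genes, 118 ribosomal protein genes were left out, which left 16836.

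CPM were computed from counts in these genes with TMM-scaled totals (14241853 to 15226243 counts in control 1, 18733513 to 24847934 in control 2). The test was the quasi-likelihood test of edgeR 4.0.16 in R 4.3.3 with filterByExpr and Benjamini-Hochberg adjustment at 0.05, fitted to the 7 control libraries alone and tested on simulated data. Hairpin libraries were fitted apart. The large rule adds 0.5 CPM before the 2-fold gap is taken. Shared sequence is the percent of 50-base stretches of a gene's transcripts found in another gene. Shares were compared by exact permutation over the 35 labelings of 7 libraries. A fold against a group at 0 uses a floor of 3 counts per library and covers counting error only. No 2 libraries of a group agreed within sampling noise (lowest chi-square per gene 2.93).

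The members and the 47 gene lists were chosen with earlier results of these data known. Named genes are a preset group of markers, the 15 genes with the largest rise and the 15 with the largest fall among large calls with 10 CPM or more, and from each list up to 4 large calls with the smallest p (or, with none, 2 genes), 174 in all. A further 62 were chosen after their values were seen: Abcc2, Acta1, Adm, Ang4, Apcdd1, Areg, Ascl2, Bend6, Bmp2, Bmp4, Car12, Chrd, Clca1, Clu, Dusp6, Egln3, Emp1, Etv5, Fgfr4, Fzd9, Gkn3, Grhl3, Gsta3, Hoxb3, Hoxb4, Id1, Ifit1, Ifit3, Igf1, Irf7, Irgm2, Isg15, Lef1, Mal, Mmp7, Mptx2, Msi1, Ngfr, Nkd1, Notum, P4ha2, Pax3, Pla2g2a, Pstpip2, Rgmb, Rsad2, Sall2, Smad7, Smoc2, Stc1, Tff3, Tmem37, Uqcrc1, Wif1, Wnt10a, Wnt3, Wnt5a, Wnt6, Wnt7b, Zg16; the list leaves out 2 that are not reported here. Alternatives were DESeq2 (1.42.0), its size factors, no filter, ribosomal protein genes kept, all 14 libraries in 1 model, a replicate block, removal of GC, length and level trends (mgcv 1.9.3), other thresholds, each replicate left out and, added after seeing the data, genes with shared sequence left out.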

Additional observations from a re-analysis of the deposited data

Results flagged for a closer look

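Within control 2, 1 library stood far from the other 3 for 30 of 242 values examined (12.4%), which are the 236 named genes and 6 library shares; the 30 are all genes. The measure was the gap between it and the nearest other library relative to the group's range. Chance flags about 1 in 20 groups of normally distributed values. Where only 1 library holds counts, as for Wfdc2, Oas2, Sval1 and Pdx1, the measure is at its maximum whatever the count. The genes were also not chosen independently of each other, so the 12.4% cannot be set against that rate. Replicate 4 was that library for 26 of the 30, the highest for 25 and the lowest for 1, Cela1 (5.41 CPM against 7.15 to 7.40 CPM in the other 3). Values that follow give the library that stood apart against the range of the other 3.

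Among secretory lineage genes replicate 4 was highest for Muc2 (54.8 CPM against 19.13 to 22.98 CPM), Tff3 (56.4 CPM against 21.6 to 25.7 CPM), Zg16 (7.10 CPM against 2.40 to 2.61 CPM), Spdef (3.05 CPM against 1.85 to 2.05 CPM), Reg4 (11.1 CPM against 5.72 to 6.48 CPM), Pla2g2a (103 CPM against 61.4 to 66.4 CPM) and Cpe (9.41 CPM against 2.42 to 3.12 CPM). Among other epithelial genes it was highest for Avil (284 CPM against 234 to 240.3 CPM), Ly6a (181 CPM against 109 to 116 CPM), Msln (17.1 CPM against 11.7 to 12.2 CPM), Sprr2a3 (36.8 CPM against 17.3 to 18.1 CPM), Krt23 (1065 CPM against 652 to 706 CPM), Lypd8 (59.9 CPM against 29.6 to 30.1 CPM), Hoxb5 (52.99 CPM against 35.7 to 38.0 CPM), Wfdc2 (0.206 CPM against 0 CPM) and Thbd (41.2 CPM against 30.0 to 31.0 CPM). Among metabolic and transport genes it was highest for Akr1b8 (18.7 CPM against 6.11 to 7.21 CPM), Phgdh (114 CPM against 65.0 to 68.3 CPM) and Aqp1 (5.41 CPM against 2.37 to 2.83 CPM). Among signalling and interferon genes it was highest for Tgfb2 (105 CPM against 78.0 to 82.3 CPM), Areg (17.04 CPM against 7.15 to 8.08 CPM), Spry4 (79.1 CPM against 54.2 to 55.6 CPM), Ngfr (171 CPM against 80.8 to 93.2 CPM), Ifit1 (3.92 CPM against 3.35 to 3.44 CPM) and Oas2 (0.0413 CPM against 0 CPM); the Oas2 value is 1 count. The 7 secretory lineage genes are lower in control 2, and replicate 4 was below every control 1 library for each of them.

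Replicate 1 was highest for Glp1r (66.3 CPM against 63.2 to 63.5 CPM). Replicate 2 was highest for Pdx1 (0.0514 CPM against 0 CPM), which is 1 count. Replicate 3 was highest for Rsad2 (2.17 CPM against 1.24 to 1.39 CPM) and for Sval1 (0.0394 CPM against 0 CPM), again 1 count.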

How the results depend on the processing

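Of 3749 values of the 236 named genes under the alternatives, 3694 kept their direction and their side of the threshold, 26 lost the call, 12 gained it and 17 changed sign. Of the 215 named genes with a large difference none changed sign, 1 (Wnt7b) missed the test under an alternative and 31 lost the large call under at least 1. Of the 1555 large calls, 1538 were kept with DESeq2's size factors, 1540 with no filter, 1530 by DESeq2, 1513 with ribosomal protein genes kept, 1552 in a model of all 14 libraries, 1328 with the trend over GC, length and level removed, and 1464 to 1534 with 1 replicate left out. An 8-fold threshold gave 468 higher and 457 lower. With the trend removed 4354 genes passed the test as higher and 5205 as lower, beside 5022 and 4793, and 712 and 759 were large. With 1 replicate left out, 4503 to 5412 passed as higher and 4297 to 5076 as lower, and 766 to 862 and 759 to 811 were large. Between hairpins those ranges were 636 to 943 and 663 to 959, the highest without hairpin 1 replicate 1.

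Small differences of shared genes changed sign with the trend removed: Cdh1 (-0.069), Apc (-0.229), Hnf4a (0.262), Vil1 (0.219), Epcam (0.435), Id1 (0.0534) and Kmt5b (-0.0115). With the replicate block as well they were -0.0933, -0.218, 0.311, 0.230, 0.418 and, for Id1, 0.0382. With 1 replicate left out, Clca1 ranged from -0.874 to 0.143, Cdx2 from -0.0006 to 0.109, Id1 from -0.4985 to 0.0938 and Kmt5b from -0.0808 to 0.278. The cause was not tested.

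Replicate numbers did not pair the samples: the correlations of same-numbered deviations were -0.040, 0.110 and -0.140. With a replicate block, 4651 genes passed as higher and 4312 as lower, 799 and 764 were large, and 1521 of the 1555 large calls were kept. With the trend removed too, 708 and 763 were large. Between hairpins the block gave 2247 genes past the test as higher and 2218 as lower, beside 3407 and 3854 without it, and 638 and 655 large calls. Depth limits genes near 0: for 92 large calls control 1 held 3 counts or fewer in all, and for 21 control 2 did, so only a bound or a wide interval can be given for the size of those differences.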

Other observations

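The set 2 files list fewer genes, so some genes of control 1 could not be compared. Of autosomal genes not listed in set 2, 86 averaged 5 CPM or more in control 1, of which 43 are protein coding and 12 of those had 20 CPM or more. Defa30, an alpha-defensin of Paneth cells, averaged 996 CPM in control 1. Myadm averaged 109 CPM, Zic2, a zinc finger transcription factor, 37.1 CPM and Mxra8 30.7 CPM. No level in control 2 is known for these genes from the files analysed here.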
